A study of Rattus norvegicus with 62 samples.

Results

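The 7 genes described here encode the core of the glial cell line-derived neurotrophic factor (GDNF) family in the dorsal root ganglion: the receptor tyrosine kinase gene Ret, the coreceptor genes Gfra1, Gfra2 and Gfra3, and the ligand genes Gdnf, Artn (artemin) and Nrtn (neurturin). They were chosen by gene symbol, and all 7 were found among the 40982 genes of each count table. Poly-A RNA was sequenced from whole L4 dorsal root ganglia of rats whose sciatic nerve had been loosely tied on one side (chronic constriction injury, used to model neuropathic pain). Injured (ipsilateral) and opposite (contralateral) ganglia were compared in males at 24 h (6 libraries a side), 1 week (7) and 5 weeks (5), and in females at 1 week (7) and 5 weeks (6). The contralateral ganglia came from operated rats, so no group was free of injury. Strain and age are not given in the labels.

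The 62 libraries held 16.9 to 33.5 M counts. Male 1 and 5 week libraries came in one count table, and female and male 24 h libraries in the other, so sex and table cannot be told apart at 1 and 5 weeks, nor can time and table between male 24 h and male 1 week. The list of 7 neuron markers was detected in every group with no marker at 0, at a summed level of 7897 to 12717 CPM (counts per M). At 1 week the sum was 10067 to 11381 CPM ipsilaterally against 8492 to 9285 CPM in males. In females it was 11223 to 12210 against 8740 to 9969 CPM. In males at 5 weeks it was 10085 to 12717 against 9095 to 10069 CPM, and in the other arms the sides overlapped. Single markers went both ways, with Tubb3 and Stmn2 higher and Snap25 lower at 1 and 5 weeks. At 1 week 2 of 7 were higher and 4 lower in males (edgeR, adjusted p under 0.05), and 3 and 4 in females. The list medians there were -0.28 and -0.19 (log2), and 47.0% and 45.7% of all genes were called. At 5 weeks 2 were higher and 2 lower in each sex (34.7% and 42.0% of genes called). At 24 h 1 was higher and 0 lower (14.1%). The sum thus does not give the direction of most markers. Ribosomal RNA made up 0.970% ± 0.236 of counts in female 1 week ipsilateral ganglia and 2.25% ± 0.359 in the contralateral ones (SD, n = 7 each). In males at 5 weeks the means were 3.74% and 3.32%, and the 2 sides were closer in the other 3 arms. In whole ganglia, fewer cells of a type and less RNA per cell cannot be told apart.

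GDNF family ligands bind a coreceptor that is tethered to the membrane by a lipid anchor, and the pair then activates RET, which has the kinase domain that the coreceptors lack. GDNF binds mainly GFRα1, neurturin GFRα2 and artemin GFRα3. In adult sensory ganglia RET and GFRα2 mark many small neurons without neuropeptides, GFRα3 marks many peptide-containing pain neurons, and the ligands are made largely by targets and glia of the nerve.

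A short sequence upstream of the start is shared by Gfra1, Gfra3 and Artn. These genes were higher on the injured side at 1 week, and so was Gdnf, which lacks it. RefSeq promoter entries (build GRCr8, a later build than that of the count tables) matched 6 of the 7 genes. The 250 bases before the start of Gfra1 (chr1:267555812-267556061), Gfra3 (chr18:26600226-26600475) and Artn (chr5:136753458-136753707), all on the minus strand, are shown because they hold it. Capitals mark the GC box GGGCGG, searched on both strands.
Gfra1: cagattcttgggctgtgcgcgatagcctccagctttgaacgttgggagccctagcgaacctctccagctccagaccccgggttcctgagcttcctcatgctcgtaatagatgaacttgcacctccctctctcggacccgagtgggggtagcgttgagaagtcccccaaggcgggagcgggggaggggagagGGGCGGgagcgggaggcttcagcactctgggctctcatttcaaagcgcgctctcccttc
Gfra3: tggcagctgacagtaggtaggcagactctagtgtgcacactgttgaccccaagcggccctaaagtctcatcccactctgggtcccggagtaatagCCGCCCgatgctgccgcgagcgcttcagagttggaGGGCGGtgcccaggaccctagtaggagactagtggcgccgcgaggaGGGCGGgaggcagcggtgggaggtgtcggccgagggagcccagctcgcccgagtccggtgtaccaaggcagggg
Artn: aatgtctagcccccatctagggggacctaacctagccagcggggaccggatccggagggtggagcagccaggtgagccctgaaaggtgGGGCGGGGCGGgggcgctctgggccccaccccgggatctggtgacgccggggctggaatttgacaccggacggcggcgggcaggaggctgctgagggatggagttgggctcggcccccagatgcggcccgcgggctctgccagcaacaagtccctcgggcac
The GC box starts 59 bases upstream of the start in Gfra1, 155, 120 and 74 bases upstream in Gfra3, and 162 and 157 bases upstream in Artn, where the 2 matches overlap. Windows of the same length held this motif in 30.5% of 33469 rat promoters, and the windows of Ret, Gdnf and Nrtn did not hold it. G and C made up 62%, 66% and 70.8% of the windows of Gfra1, Gfra3 and Artn. In Ret, Gdnf and Nrtn they made up 72.8%, 49.6% and 56.4%. The median over all promoters was 51.2%, and the share of 30.5% was not matched for this content. The AP-1 motif TGANTCA, present in 6.34% of all windows, and the cyclic AMP response element TGACGTCA, present in 1.59%, were found in none of the 6 windows, and the TATA box TATAAA, present in 12.9%, was found in that of Gdnf. A match describes letters only.

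On the build mRatBN7.2 of the count tables, Ret lies on chromosome 4 from 151325969 to 151368176, Gfra1 on chromosome 1 from 257315682 to 257552004, Gfra2 on chromosome 15 from 45941841 to 46033715, and Gfra3 on chromosome 18 from 26297828 to 26326105. Gdnf lies on chromosome 2 from 56893992 to 56919935, Artn on chromosome 5 from 131458596 to 131470193, and Nrtn on chromosome 9 from 1581860 to 1587835. All are protein-coding, and counts were summed over all annotated exons. Levels are compared between genes as CPM per kilobase of summed exon length.

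On that per-length scale, Ret was the most abundant member in contralateral ganglia, with group means of 99.1 to 119 CPM per kb. Gfra1 (28.0 to 30.2) and Gfra3 (23.1 to 31.5) followed, and their ranges overlapped. Gfra2 reached 19.3 to 23.4 CPM per kb. The ligands were far lower: Nrtn 0.481 to 0.863, Artn 0.105 to 0.147 and Gdnf 0.0115 to 0.0216 CPM per kb. On the injured side Gfra1 had group means of 39.5 to 80.1 CPM per kb, Gfra3 24.7 to 60.3, and Gfra2 13.2 to 16.9. The annotated exons of Artn sum to 10945 bases of a gene that spans 11.6 kb, which bears on its per-length level.

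Between sides, coreceptors changed in opposite directions while Ret changed little. Gfra1 was higher on the injured side in all 5 arms, Gfra3 was higher and Gfra2 lower in the 4 arms at 1 and 5 weeks, and Ret passed the test in 1 arm. Of the 6 members tested at 24 h, 1 was higher and 0 lower, where 14.1% of 18125 genes (8.23% higher, 5.90% lower) were called at an adjusted p under 0.05 (edgeR quasi-likelihood test, Benjamini-Hochberg over all genes). In males 4 were higher and 1 lower of 7 at 1 week (47.0% of 18980 genes called, 23.6% higher and 23.4% lower) and 4 higher and 2 lower of 7 at 5 weeks (34.7%, 16.0% higher and 18.7% lower). In females 3 were higher and 1 lower of 6 at 1 week (45.7%, 23.9% higher and 21.8% lower) and 2 higher and 1 lower of 6 at 5 weeks (42.0%, 22.9% higher and 19.1% lower). At 1 and 5 weeks a large share of all genes was called, so a count of calls says little by itself. Gdnf passed the filter on low counts in the male 1 and 5 week table through its ipsilateral libraries. The filter thus favoured a difference there, and in the other table Gdnf did not pass.

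**Figure D1:**
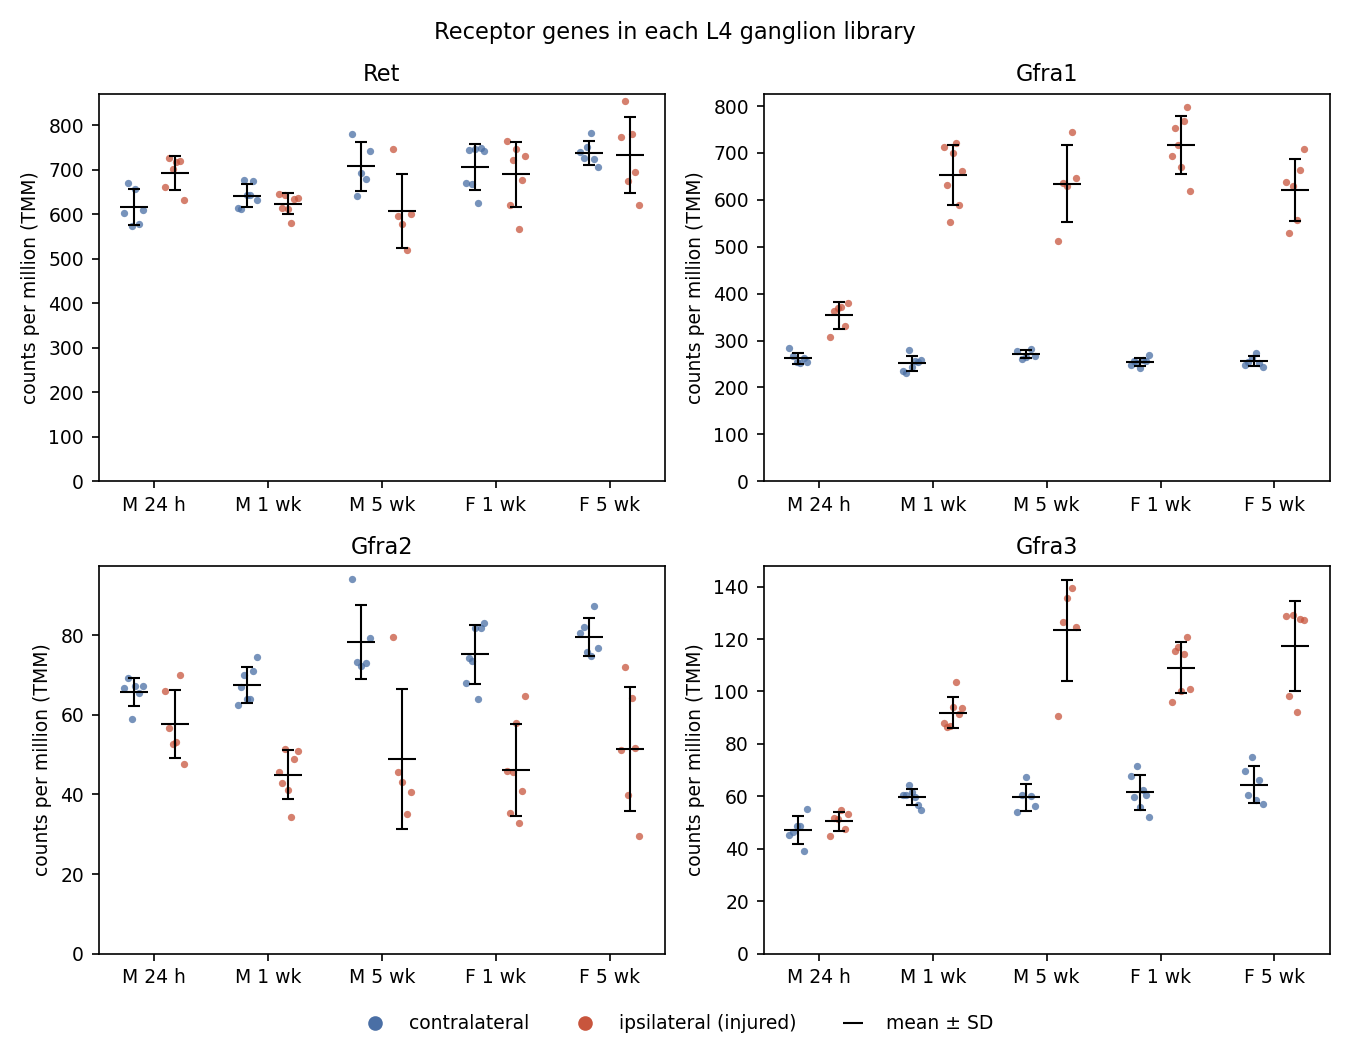
CPM (TMM-scaled) of Ret, Gfra1, Gfra2 and Gfra3 in each of 62 ganglion libraries, by arm, with contralateral libraries in blue, ipsilateral in red, and bars for the mean and SD of a group. Ipsilateral Gfra1 lies above every contralateral library in all 5 arms, from 307 CPM up, whereas Ret overlaps between sides in all 5.

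Gfra1, the coreceptor for GDNF, was the member that separated the sides most clearly. At 24 h the lowest, median and highest contralateral libraries had 251, 259 and 283 CPM and the ipsilateral 307, 367 and 380 CPM. In males at 1 week the contralateral values were 231, 254 and 280 CPM and the ipsilateral 553, 661 and 721 CPM. No ipsilateral library overlapped a contralateral one in any arm. In males at 5 weeks the 5 ipsilateral libraries were at 513, 636, 630, 745 and 647 CPM against 277, 261, 265, 282 and 268 CPM. In females the ipsilateral lowest, median and highest were 619, 717 and 798 CPM at 1 week against 241, 256 and 270 CPM. At 5 weeks the female values were 530, 633 and 709 CPM against 244, 254 and 274 CPM. Gfra1 thus rose 1.35-fold at 24 h and 2.34- to 2.82-fold at 1 and 5 weeks. The log2 fold changes were 0.43 ± 0.06 (SE, adjusted p = 7.31e-07) at 24 h, 1.38 ± 0.07 (5.23e-14) in males at 1 week and 1.23 ± 0.08 (2.12e-11) at 5 weeks. In females they were 1.496 ± 0.055 (5.15e-22) at 1 week and 1.28 ± 0.06 (8.63e-19) at 5 weeks. By p-value Gfra1 ranked 1 of 18125 genes in females at 1 week and 2 at 5 weeks, and 180, 25 and 34 in males at 24 h, 1 week and 5 weeks.

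Gfra3, the coreceptor for artemin, passed the test from 1 week on, in the same direction as Gfra1. At 24 h its lowest, median and highest levels were 39.0, 47.5 and 55.0 CPM contralaterally and 44.9, 51.5 and 54.8 CPM ipsilaterally, and the sides overlapped (log2 fold change 0.10 ± 0.09, adjusted p = 0.527). In males at 1 week the values were 54.6, 60.4 and 64.5 CPM against 86.4, 91.3 and 103 CPM on the injured side. The 5 male libraries at 5 weeks had 53.9, 60.5, 67.4, 60.0 and 56.2 CPM contralaterally and 90.5, 126, 136, 140 and 124 CPM ipsilaterally. From 1 week on, no library of one side overlapped the other. Female ipsilateral libraries ran from 95.8 to 121 CPM at 1 week and from 92.0 to 129 CPM at 5 weeks, against 52.0 to 71.7 and 57.0 to 74.9 CPM. Log2 fold changes of Gfra3 were 0.62 ± 0.07 (SE, adjusted p = 7.87e-08) and 1.05 ± 0.08 (9.73e-10) in males at 1 and 5 weeks, and 0.83 ± 0.08 (1.17e-10) and 0.86 ± 0.09 (7.28e-10) in females.

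Gfra2, the coreceptor for neurturin, was lower on the injured side at 1 and 5 weeks in both sexes, and of the receptor genes it varied most, relative to its mean, between ipsilateral libraries. At 24 h it had 58.9, 66.9 and 69.3 CPM (lowest, median, highest) contralaterally and 47.6, 54.8 and 69.9 CPM ipsilaterally. That difference did not pass the test (log2 fold change -0.19 ± 0.15, adjusted p = 0.450). In males at 1 week the levels were 62.4, 67.1 and 74.6 CPM against 34.2, 45.6 and 51.3 CPM, with no overlap. At 5 weeks the male libraries 1 to 5 had 94.1, 73.3, 72.2, 72.9 and 79.3 CPM contralaterally and 79.4, 45.5, 43.0, 35.2 and 40.7 CPM ipsilaterally. Ipsilateral library 1 alone reached the contralateral range. In females Gfra2 had 32.7 to 64.6 CPM ipsilaterally at 1 week against 64.0 to 83.0 CPM, and 29.5 to 71.9 CPM at 5 weeks against 74.6 to 87.3 CPM. It fell by 0.59 ± 0.13 (log2, SE, adjusted p = 0.000759) and 0.69 ± 0.16 (0.00132) in males at 1 and 5 weeks. In females it fell by 0.70 ± 0.14 (6.68e-05) at 1 week and 0.63 ± 0.15 (0.000827) at 5 weeks. In each of these 4 arms Gfra2 was lower in every numbered pair of sides, 25 pairs in all.

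Ret, the shared kinase, had lowest, median and highest levels of 573, 606 and 670 CPM contralaterally and 633, 708 and 725 CPM ipsilaterally at 24 h. It was higher ipsilaterally in 6 of 6 pairs, yet the log2 fold change of 0.17 ± 0.07 (SE) did not pass the test (adjusted p = 0.0732). With the pair as a block it did (adjusted p = 0.0253), and over all alternative settings the adjusted p ran from 0.0253 to 0.261. The pairing of numbers 5 and 6 at 24 h is uncertain, as these sides did not correlate with their own numbers. At 1 week Ret differed by -0.04 ± 0.05 in males and -0.03 ± 0.06 in females, and by -0.01 ± 0.07 in females at 5 weeks (adjusted p = 0.582, 0.676 and 0.925). The 95% intervals of these differences were -0.15 to 0.07, -0.15 to 0.08 and -0.14 to 0.12. Against the 5 week contralateral libraries Ret in males at 1 week was lower by a called difference (-0.18, adjusted p = 0.0146, range over alternatives 0.0146 to 0.815). In males at 5 weeks Ret had 780, 642, 693, 678 and 742 CPM contralaterally and 746, 595, 579, 520 and 600 CPM ipsilaterally, lower in 5 of 5 pairs. That fall of 0.22 ± 0.06 (adjusted p = 0.00983) was no longer called without ipsilateral library 4 (-0.15, adjusted p = 0.0691). The call was also lost when only these 2 groups were fitted, with a fall of nearly the same size (-0.20, adjusted p = 0.0875), and against the 1 week contralateral libraries (-0.08, 0.308), and the adjusted p over alternatives ran from 0.000243 to 0.308.

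**Figure D2:**
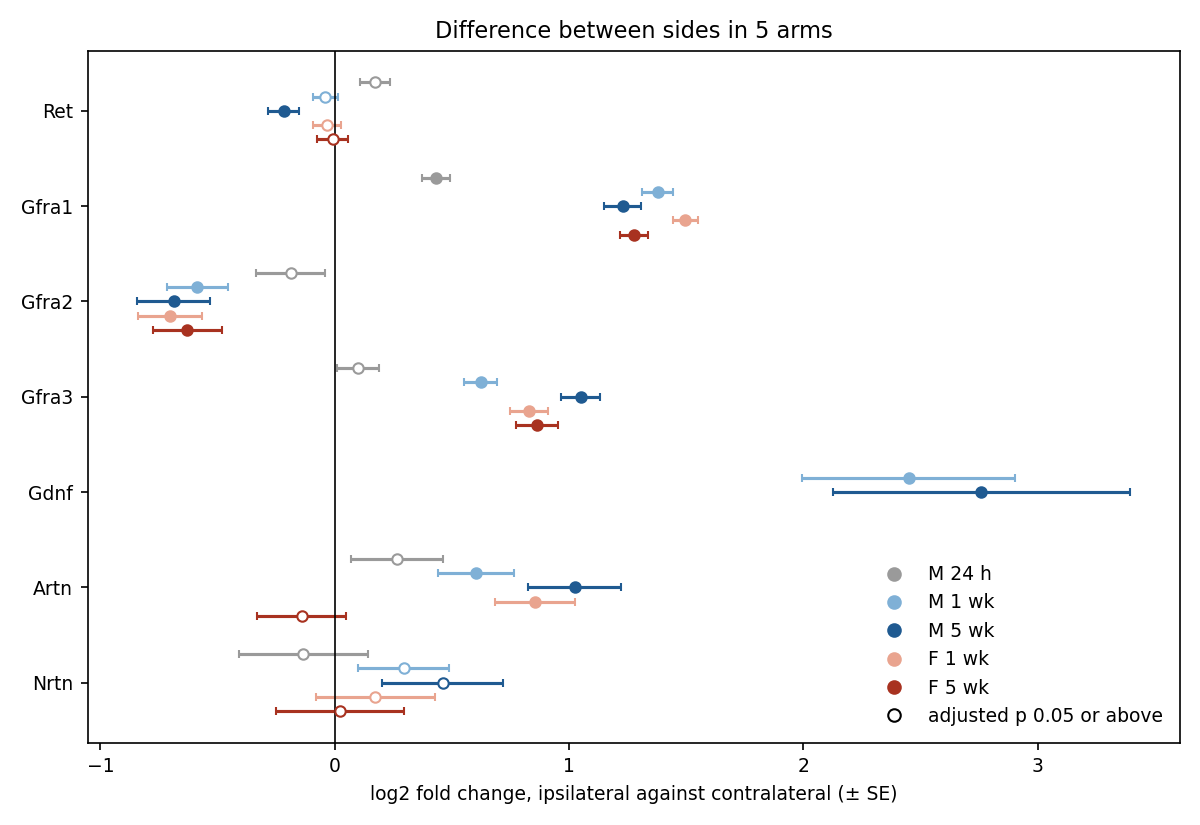
Log2 fold change of each member between ipsilateral and contralateral ganglia, with its standard error, in 5 arms (M, males, F, females); open points did not pass an adjusted p of 0.05. Gfra1 and Gfra3 lie to the right of 0 and Gfra2 to the left in all 5 arms, and Gdnf is drawn for males at 1 and 5 weeks, the arms in which it passed the filter.

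These opposite changes altered the balance of coreceptors. Per exon length, Gfra1 made up 36.3% ± 1.21 of the summed coreceptor level in contralateral and 55.5% ± 2.50 in ipsilateral ganglia of males at 1 week (SD, n = 7). In females at 1 week its share was 35.3% ± 1.59 against 54.4% ± 2.31. At 24 h it was 40.9% ± 2.16 against 48.6% ± 2.53. The Gfra2 share was lower on the injured side in each arm. It was 25.8% ± 1.499 contralaterally and 10.2% ± 1.83 ipsilaterally in males at 1 week, and 27.4% ± 2.77 against 9.34% ± 2.78 in females at 1 week. At 24 h the Gfra2 share was 27.0% ± 1.29 against 21.0% ± 3.70. The Gfra3 share stayed between 30.4% and 41.3% as a group mean on the injured side. By 5 weeks Gfra1 stood at 48.6% in males and 48.8% in females, and Gfra3 at 41.3% and 40.3%.

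The sum of the 3 coreceptors relative to Ret, on the same per-length scale, was 0.725 ± 0.041 contralaterally and 0.728 ± 0.041 ipsilaterally at 24 h (SD, n = 6), a difference that did not pass an exact 2-sided permutation test (adjusted p over the 5 arms = 0.894). Without length scaling the difference at 24 h passed (0.0565, adjusted p = 0.0476). At 1 week the ratio was 0.746 ± 0.020 against 1.31 ± 0.115 in males and 0.711 ± 0.058 against 1.34 ± 0.206 in females (exact permutation test, adjusted p = 0.00146 for both). At 5 weeks it was 0.726 ± 0.047 against 1.52 ± 0.319 in males (adjusted p = 0.00992, exact permutation) and 0.702 ± 0.035 against 1.22 ± 0.219 in females (0.0036). The ranges of the 2 sides did not overlap in these 4 arms. With same-numbered sides taken as pairs, an exact sign-flip test could not pass at 5 weeks: the adjusted p of 0.0781 for males and 0.0521 for females are the smallest that 5 and 6 pairs could give beside the other arms, and every pair differed in the same direction. This ratio and its test were chosen after the data were seen.

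**Figure D3:**
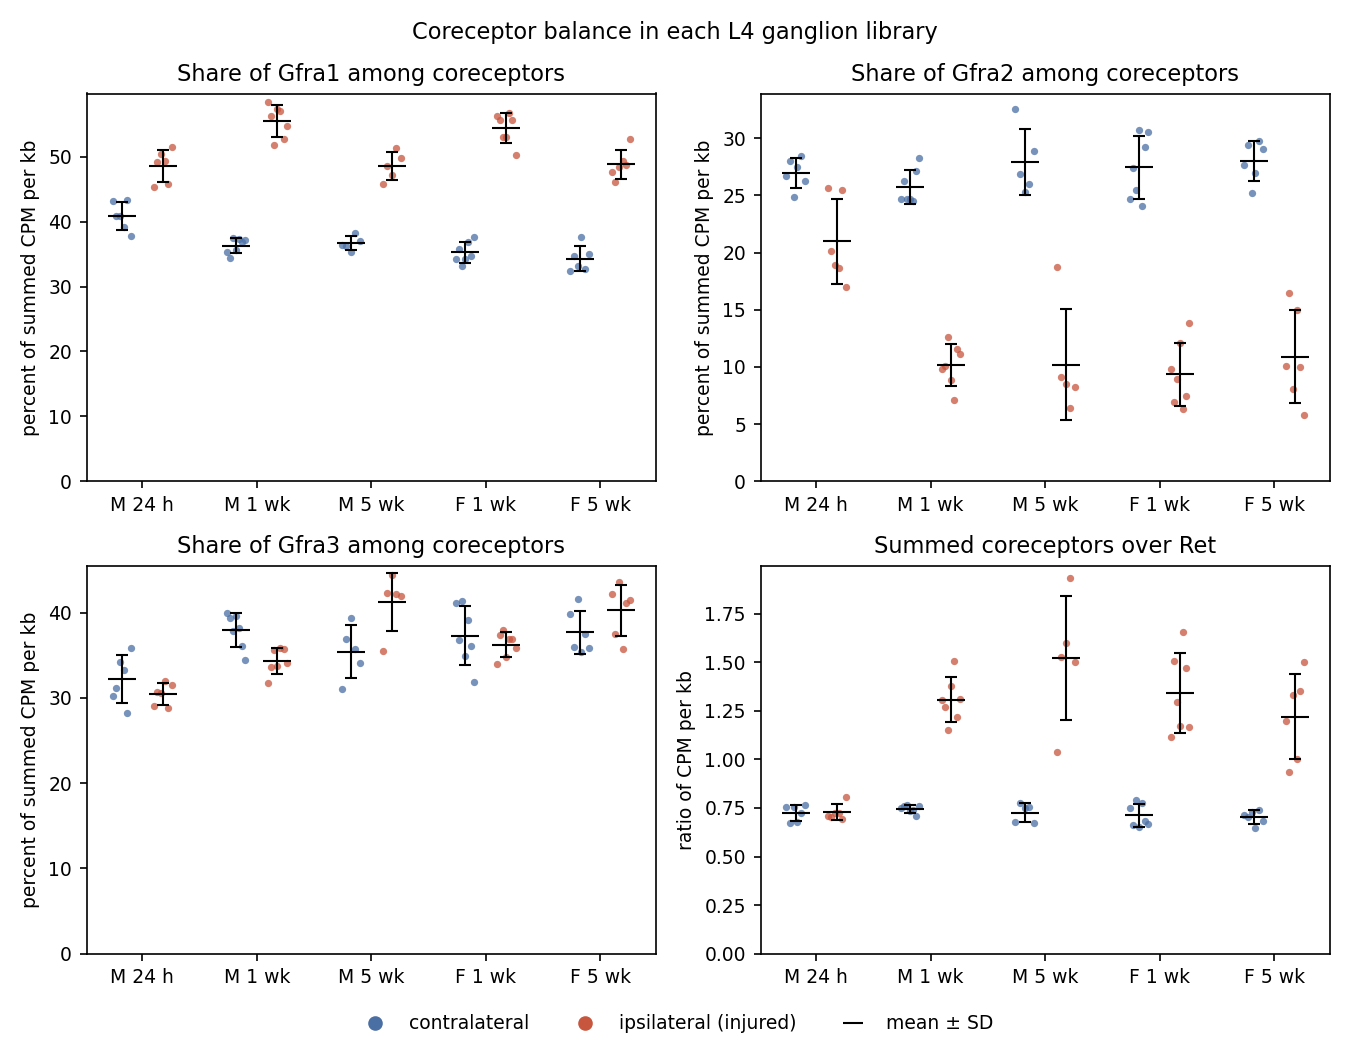
Share of Gfra1, Gfra2 and Gfra3 in the summed coreceptor level (percent of CPM per kilobase) and the sum relative to Ret in each library, with mean and SD, contralateral in blue and ipsilateral in red. The sum relative to Ret overlaps between sides at 24 h and is separated in the 4 arms at 1 and 5 weeks, where the Gfra2 share has means of 9.34% to 10.9% ipsilaterally.

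Among injured-side libraries of one group, the receptor genes varied together. Gfra1 and Gfra2 deviated from their group means in opposite directions, with r = -0.85 and rho = -0.81 over 31 ipsilateral libraries. Gfra1 and Gfra3 deviated in the same direction (r = 0.81, rho = 0.75), as did Ret and Gfra2 (r = 0.87, rho = 0.81). For these 3 pairs the permutation p was 1e-05, the smallest that 100000 permutations within arms can give, and the adjusted p over 12 pairs was 4e-05 for r and 3e-05 for rho. The same direction held within every arm for Gfra1 against Gfra2, with r of -0.90 at 24 h (n = 6), -0.69 and -0.97 in males at 1 and 5 weeks (n = 7 and 5), and -0.89 and -0.88 in females (n = 7 and 6). For Ret against Gfra2, r was 0.33 at 24 h and 0.82 to 0.97 in the other 4 arms. Of the other 3 ipsilateral pairs, Gfra2 against Gfra3 had r = -0.79, Ret against Gfra1 -0.69 and Ret against Gfra3 -0.70. Their adjusted p was at most 0.0011 by permutation. At 24 h (n = 6) Ret had r = 0.04 with Gfra1 and 0.13 with Gfra3, and both were negative in each other arm. Without the 2 libraries farthest from the median of Gfra1, r of Gfra1 against Gfra2 was -0.83. These deviations were centred on group means, and the libraries of a group share arm and table. All genes of a library share its depth and cell content, whose part was not tested. The check was chosen after the data were seen.

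In contralateral libraries the relations of Gfra1 with the other coreceptors did not pass the test. There Gfra1 and Gfra2 had r = 0.20 (rho = 0.25, permutation p = 0.27 and 0.19, adjusted 0.31 and 0.21), and Gfra1 and Gfra3 r = -0.18 (rho = -0.25, permutation p = 0.31 and 0.18, adjusted 0.31 and 0.21). Ret and Gfra2 were also positively related over all contralateral libraries, with r = 0.67 and rho = 0.62 (permutation p = 0.00038 and 0.00093, adjusted 0.00076 and 0.0016). Without the 2 libraries farthest from the median r was 0.53, and within arms contralateral r was 0.74 at 24 h, 0.40 and 0.86 in males and 0.90 in females at 1 week, but -0.49 in females at 5 weeks (n = 6). Contralateral Gfra2 and Gfra3 had r = -0.39 and rho = -0.42 (permutation p = 0.042 and 0.028, adjusted 0.063 and 0.042), so only rho passed. The direction was the same as ipsilaterally. The difference between the sides in these correlations was not tested. The SD of Gfra1 and of Gfra2 was larger ipsilaterally in all 5 arms. The highest Gfra2 of the 5 male ipsilateral libraries at 5 weeks, library 1 at 79.4 CPM, came with the highest Ret (746 CPM), the lowest Gfra1 (513 CPM) and the lowest Gfra3 (90.5 CPM). In females at 5 weeks library 2 had the highest Gfra2 (71.9 CPM) and Ret (854 CPM) with the lowest Gfra1 (530 CPM).

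**Figure D4:**
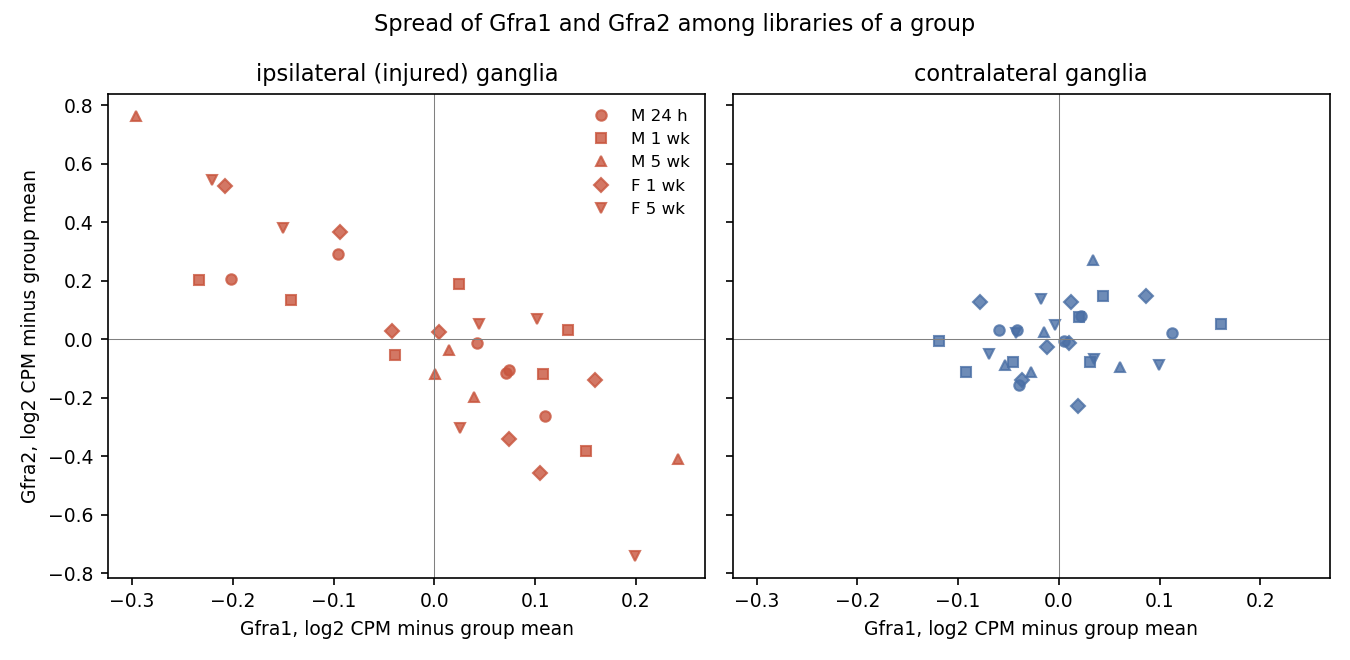
Gfra1 against Gfra2 as log2 CPM minus the group mean in 31 ipsilateral (left) and 31 contralateral (right) libraries, with a symbol for each arm. Ipsilateral points fall along a descending line (r = -0.85), and contralateral points do not (r = 0.20).

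The ligand genes were close to the detection limit, and their levels rest on few reads. Gdnf had 0 to 5 counts in each contralateral library. In males at 1 week the 7 contralateral libraries held 18 counts in all and the ipsilateral 103, or 0.336 to 0.695 CPM each, above every contralateral value (at most 0.156 CPM). At 5 weeks the male ipsilateral libraries had 0.309, 0.763, 0.0438, 0.583 and 0.647 CPM against 0.0495, 0, 0.0928, 0 and 0.186 CPM. Gdnf was higher by 2.45 ± 0.45 (log2, SE, adjusted p = 8.48e-05) and 2.76 ± 0.63 (0.0013) there. No contralateral library there reached the filter cut of 0.375 CPM, so Gdnf could pass only through ipsilateral libraries. The filter thus favoured such a difference, and these calls are no support for one. Without the filter, females had 14 counts contralaterally and 59 ipsilaterally at 1 week and 13 against 56 at 5 weeks. Their log2 fold changes were 2.05 ± 0.48 (adjusted p = 0.000734) and 1.99 ± 0.51 (0.00237). At 24 h there were 16 against 23 counts, a change of 0.52 ± 0.55 (0.668). Counting error is large at these depths, and no fold change is a tight estimate.

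Artn, the ligand of GFRα3, was higher on the injured side at 1 week in both sexes, and at 5 weeks in males but not in females. In males at 1 week it had 1.09, 1.28 and 1.56 CPM (lowest, median, highest) contralaterally and 1.41, 1.98 and 2.53 CPM ipsilaterally. In females at 1 week it had 1.08, 1.24 and 1.69 CPM against 1.79, 2.50 and 2.89 CPM, without overlap. At 5 weeks the male libraries had 1.68, 1.21, 1.21, 0.793 and 1.07 CPM contralaterally and 1.91, 2.77, 1.58, 2.46 and 3.39 CPM ipsilaterally. Every pair of these 3 arms was higher ipsilaterally, while 2 of 6 pairs were in females at 5 weeks, where the sides had 1.12, 1.56 and 2.05 CPM against 0.970, 1.42 and 2.31 CPM. Log2 fold changes were 0.60 ± 0.16 (SE, adjusted p = 0.00325) in males at 1 week, 1.02 ± 0.20 (0.000232) at 5 weeks, 0.85 ± 0.17 (8.17e-05) in females at 1 week and -0.14 ± 0.19 (0.585) at 5 weeks. At 24 h it was 0.26 ± 0.20 (0.422). The female 1 week call was lost with the ribosomal RNA share as a covariate (0.51 ± 0.31, adjusted p = 0.258), and the adjusted p over alternatives ran from 1.13e-05 to 0.258. In that arm the share did not overlap between sides (0.692% to 1.42% ipsilaterally, 1.69% to 2.76% contralaterally). Side and share are therefore hard to tell apart there.

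Nrtn, the ligand of GFRα2, passed the test in no arm. Its levels lay between 0.317 and 2.17 CPM over all libraries, and the 2 sides overlapped in all 5 arms. The log2 fold changes were -0.13 ± 0.28 (SE) at 24 h, 0.29 ± 0.20 and 0.46 ± 0.26 in males at 1 and 5 weeks, and 0.17 ± 0.25 and 0.02 ± 0.27 in females, with adjusted p of 0.819, 0.233, 0.182, 0.610 and 0.958. Against the 5 week contralateral libraries the difference in males at 1 week was called (0.64, adjusted p = 0.0256, range over alternatives 0.0256 to 0.337).

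**Figure D5:**
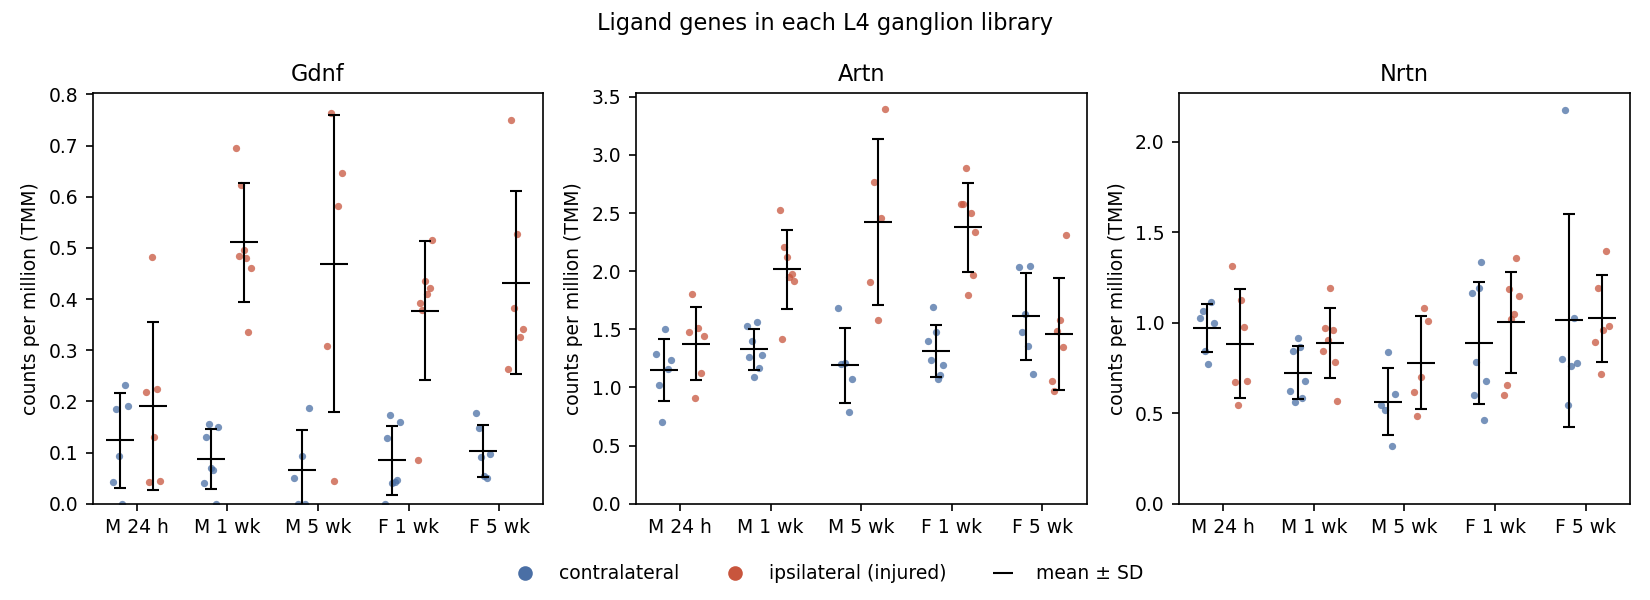
CPM of the ligand genes Gdnf, Artn and Nrtn in each of the 62 libraries by arm, contralateral in blue, ipsilateral in red, with mean and SD. Gdnf stays at or below 0.232 CPM in all contralateral libraries, and Artn is separated between sides in females at 1 week and overlaps in females at 5 weeks.

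The size of the side difference depended on time for a few members. Between 24 h and 1 week in males, the log2 difference between sides grew by 0.95 ± 0.09 for Gfra1 (adjusted p = 1.26e-11) and by 0.52 ± 0.12 for Gfra3 (0.000662). Of 7 members, 2 were called there, where 23.0% of 19209 genes were. Ret had -0.21 ± 0.09 (adjusted p = 0.0714, with the pair as a block 0.0153, range over alternatives 0.0153 to 0.147). That block includes the 24 h pairs of numbers 5 and 6, whose pairing is uncertain. Gdnf had 1.93 ± 0.76 (adjusted p = 0.0581). It passed with limma-voom (2.09, adjusted p = 0.0493), with DESeq2 (1.97, 0.0383) and in 6 of 26 fits without one library (lowest 0.0212). The adjusted p over alternatives other than leaving out a library ran from 0.0383 to 0.457. Gdnf passed the filter of the joint fit through its ipsilateral libraries, which were highest at 1 and 5 weeks. The filter thus favoured such a gain, and these passes are no support for one. These values compare the 2 count tables as well as the 2 times. Between 1 and 5 weeks no member passed in males (0 of 7, where 0.211% of genes were called). Gfra3 came nearest (0.43 ± 0.11, adjusted p = 0.110). It passed with the pair as a block (0.42, adjusted p = 0.0108), with DESeq2 (0.0266) and without ipsilateral library 1 of 5 weeks (0.54, 0.000815), and the adjusted p over alternatives other than leaving out a library ran from 0.0108 to 0.178. Artn alone of 6 passed in females (13.5% of genes called), with a difference of -0.996 ± 0.257 (adjusted p = 0.00654). With the ribosomal RNA covariate it did not (-0.67, adjusted p = 0.365, range over alternatives 0.00323 to 0.365). In females at 1 week that share did not overlap between sides, so side and share are hard to tell apart. Gfra1 came near the threshold in females (-0.22 ± 0.08, adjusted p = 0.0596). It passed with DESeq2 (-0.22, 0.0455) and without any one of 5 libraries (lowest 0.0187), and the adjusted p over alternatives other than leaving out a library ran from 0.0455 to 0.282.

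Sexes differed in their response for 1 member at 5 weeks. The side difference of Artn in females minus that in males was -1.20 ± 0.28 (log2, SE, adjusted p = 0.00644), and 2.11% of 19209 genes were called in that comparison. At 1 week 0 of 7 members passed (1.11% of genes called). Each of these comparisons also compares the 2 count tables. Among the contralateral ganglia, 0 of 7 members differed between 1 and 5 weeks in males and 0 of 6 in females, where 13.5% and 10.7% of genes did.

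Other members of the family were examined as a list of 2 ligands and 6 receptors or partners. Gdf15, a distant relative that signals through GFRAL, was higher at 24 h (2.80 ± 0.35 log2, SE, adjusted p = 1.38e-07), rising from 0.0483, 0.247 and 0.325 CPM to 0.788, 1.53 and 2.24 CPM (lowest, median, highest), and passed in no other arm. Gfral, its receptor gene, did not pass the filter and had 0 counts in most libraries. Pspn (persephin) and its coreceptor gene Gfra4 passed the test in no arm. Ncam1, an alternative GDNF partner that signals without RET, was higher at 1 and 5 weeks by 0.18 to 0.33 (log2). Sorl1, which encodes the sorting receptor SorLA, known to take up GDNF and GFRα1, had log2 fold changes of -1.12 ± 0.18 and -1.23 ± 0.21 in males and -1.35 ± 0.15 and -0.83 ± 0.16 in females at 1 and 5 weeks. Its adjusted p was at most 9.11e-05. Its relative Sort1 fell in the same arms (-0.26 to -0.11), and Sdc3 (syndecan 3) passed in none.

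Genes downstream of RET did not share one direction. Of 18 adaptors and effectors, 6 were higher and 3 lower in males at 1 week, 3 and 3 at 5 weeks, 4 and 4 in females at 1 week, 9 and 5 at 5 weeks, and 1 and 1 at 24 h. Of all genes, 47.0%, 34.7%, 45.7%, 42.0% and 14.1% were called in these arms, so the list's counts in males and in females at 1 week were close to that background. The median log2 fold change of this list lay between 0.0007 and 0.063, against medians of -0.0090 to 0.015 over all genes. Dok4, an adaptor of RET, fell in all 5 arms, with log2 fold changes of -0.65 to -0.33. Dok6, another adaptor, was higher in males at 1 week (0.25 ± 0.08 log2, adjusted p = 0.0149), lower in females at 1 week (-0.39 ± 0.10, 0.000961) and higher in females at 5 weeks (1.13 ± 0.10, 5.85e-11). Irs2 was higher at 24 h (0.26 ± 0.04, 3.43e-06) and lower in the other 4 arms. Of 13 genes of feedback and turnover, 1 was higher and 5 lower in males at 1 week, and 1 and 6 at 5 weeks. In females 1 and 5 passed at 1 week and 3 and 3 at 5 weeks, and 2 and 1 at 24 h. At 1 week these counts were near the 47.0% and 45.7% of all genes called. Etv1, a transcription factor of the ETS family, fell in all 5 arms, with log2 fold changes of -0.71 to -0.21. Cd2ap, an adaptor in receptor degradation, was lower in the 4 arms at 1 and 5 weeks, and Etv4 in males at 1 week and females at 5 weeks.

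Markers of neurons known to carry RET fell more often than they rose at 1 and 5 weeks. Of 10 such genes, 7 were lower and 1 higher in males and in females at 1 week, and 5 lower and 1 higher at 5 weeks in both sexes, with list medians of -0.39 to -0.66 (log2). Of all genes 23.4% (males) and 21.8% (females) were lower at 1 week, and 18.7% and 19.1% at 5 weeks. The median over all genes was between -0.0018 and 0.015. Tafa4, a chemokine-like protein of low-threshold C fibres, was the gene that rose in all 5 arms, by 0.53 to 1.30. Scn11a (the sodium channel NaV1.9) and Th (tyrosine hydroxylase) were lower in these 4 arms, with log2 fold changes of -0.74 to -0.53 and -1.27 to -0.99. Of 8 transcription factors of these neurons, 5, 4, 6 and 3 were lower and 1, 1, 1 and 2 higher in males at 1 and 5 weeks and in females at 1 and 5 weeks, and 3 and 1 at 24 h, where 47.0%, 34.7%, 45.7%, 42.0% and 14.1% of all genes were called in either direction. Etv1, lower in all 5 arms, is on this list and on that of feedback and turnover, and counts in both. Klf7 was higher in all 5 arms by 0.20 to 0.34, and Zfhx3 was lower in females at 1 week (-0.46 ± 0.05) and higher at 5 weeks (0.19 ± 0.05). Of 5 peptidergic markers, 2 were higher and 3 lower in males at 1 week and 0 and 2 at 5 weeks, 0 and 3 in females at 1 week and 0 and 2 at 5 weeks, and 0 passed at 24 h. Their sum in males at 1 week was 1541 ± 198 CPM ipsilaterally and 1419 ± 110 CPM contralaterally (SD, n = 7). At 24 h it was 1451 ± 126 against 1257 ± 119 CPM. It was lower ipsilaterally in males at 5 weeks (1191 ± 220 against 1454 ± 97.5 CPM). The same held in females at 1 week (1271 ± 322 against 1341 ± 90.8 CPM) and 5 weeks (1284 ± 156 against 1363 ± 110 CPM). Trpv1, a heat-gated channel of peptidergic pain neurons, was among those lower in each arm at 1 and 5 weeks.

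Markers of other cell types moved beside the coreceptors. Of all genes, 47.0% and 34.7% were called in either direction in males at 1 and 5 weeks. In females the share was 45.7% and 42.0%, and at 24 h it was 14.1%. In males at 1 week 6 of 6 macrophage markers were higher on the injured side, and their sum ranged from 100 to 216 CPM against 37.1 to 106 CPM. In females 6 of 6 were higher at both times, with sums of 89.7 to 182 CPM against 39.0 to 53.6 at 1 week. In males at 5 weeks 3 of 6 were higher (73.2 to 154 CPM against 54.9 to 107 CPM), and at 24 h 0 passed. Of 7 Schwann cell markers, 6 were lower in both sexes at 1 week, and their sum ran from 13515 to 16680 CPM against 16280 to 30888 CPM in females. A further Schwann cell marker was higher in males at 1 week, while at 5 weeks 1 was higher and 1 lower in each sex, and at 24 h 0 passed. The 5 markers of large neurons summed to 5552 to 7649 CPM against 8523 to 9249 CPM in males at 1 week. No marker of these lists was at 0 in any group. Their part in the results was not tested. The satellite glia markers passed the test in at most 4 of 5 cases (males at 1 week, 1 higher and 3 lower). Of 5 erythrocyte markers, 5 were higher in males at 1 week and 0 passed in the other arms, and of 5 fibroblast markers 3 were higher in females at 5 weeks, 1 in males at 1 week, and 2 were lower at 24 h. Of the muscle and adipocyte markers, 2 or fewer passed in males and 3 in females at 1 week, all lower.

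Across the 62 libraries, after centring each arm on its mean, the genes most like the receptors were found among 10847 genes. Gfra1 was most like Stac2 (r = 0.990), Camk2d (0.990), Gap43 (0.989) and Itgb1 (0.987). Gap43, a growth cone protein, and Stac2 were also higher on the injured side in every arm. Gfra3 was most like Dusp26 (r = 0.958), Gap43 (0.953), Myrf (0.952) and Qdpr (0.952). Gfra2 was most like Kcnd3 (0.968), Kcnip4 (0.965), Scn11a (0.961) and Plcd4 (0.959), of which Kcnd3 and Scn11a encode ion channels. Ret was most like Scg3 (r = 0.766), P2rx3 (0.758), Cd55 (0.750) and Rgs4 (0.734), lower values than those of the coreceptors. These correlations span both sides of each arm, so a shared difference between sides enters them, and Ret had little such difference. Within ipsilateral libraries alone they were 0.929 for Stac2, 0.959 for Kcnd3, 0.895 for Dusp26 and 0.801 for Scg3, each with its member. Within contralateral libraries alone they were 0.906, 0.756, 0.793 and 0.742 in the same order. On that side Scg3 thus followed Ret about as closely as Kcnd3 followed Gfra2. The libraries of a side were not centred again on their group means. Side differences that vary between arms therefore still enter these values.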

How the data were processed

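RNA of 62 rat ganglia was counted per gene. The deposited values are estimated counts (reads shared between genes enter as fractions), made by the authors. The submitters' processing notes name STAR 2.7.2b, featureCounts 1.6.4, bcl2fastq 2.20.0.422, cutadapt 2.5 and the build mRatBN7.2. They were rounded to integers, which moved no library total by more than 0.0014%. Whether counting used strand is not given in the sources used here, so reads of overlapping or antisense genes cannot be told apart.

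R 4.3.3 and edgeR 4.0.16 were used: TMM scaling, filterByExpr (at least 10 counts), glmQLFit and glmQLFTest with robust settings per count table, a joint fit across tables, and Benjamini-Hochberg adjustment over all genes at 0.05. SE was taken as |log2 fold change| over the root of the F statistic, and 95% intervals are 1.96 SE. CPM use TMM-scaled library sizes. The scripts were tested on simulated data. limma 3.58.1 and DESeq2 1.42.0 served as alternatives, with RLE scaling, no filter, a mean CPM of at least 1, a replicate block, a ribosomal RNA covariate (139 genes), fits of only the groups compared, contralateral libraries of the other week, and leaving out each library. Python 3.11.15 computed the exact permutation tests.

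The members and gene lists were chosen with earlier results of these data known. Named genes are the 7 members, all other family members, the 3 smallest p-values of each list, and the 4 genes most like each receptor (Pearson r, mean log2 CPM of at least 3). Genes of the lists below these ranks are not named. Nothing in the labels says that the male 1 and 5 week libraries come from separate animals, so their p-values measure the spread between samples.

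In the second table both sides carry the same animal code. After removal of group means, same-numbered libraries had median correlations of 0.219 (male 24 h) and 0.471 and 0.386 (male 1 and 5 weeks). In females they were 0.322 and 0.377 at 1 and 5 weeks. Each pair of the first table was above 0.1. Same-numbered sides were therefore read as pairs, but the main tests compared group means without pairing. Pairing entered tests only as alternatives, the replicate block and the sign-flip test. At 24 h the correlations of numbers 5 and 6 were near 0 (0.0037 and -0.0080). There ipsilateral library 5 was most like contralateral library 6 (0.127), and ipsilateral library 6 most like contralateral library 5 (0.288). In females at 1 week number 6 had 0.0762 and was most like contralateral library 2 (0.258). The pairing of these numbers is uncertain, and results that use pairs in these arms depend on it.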

Additional observations from a re-analysis of the deposited data

Results flagged for a closer look

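Of 70 groups of 4 to 10 libraries tested for a lone extreme library, 3 had one, and chance gives about 1 in 20. Gfra2 was lowest in contralateral library 3 of males at 24 h, at 58.9 CPM against a group median of 66.9 CPM. Gfra3 was lowest in ipsilateral library 1 of males at 5 weeks, at 90.5 CPM against a median of 126 CPM. Gdnf was lowest in ipsilateral library 1 of females at 1 week, at 0.0858 CPM against a median of 0.409 CPM, a matter of 2 counts.

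The side difference of Artn was lower in females at 5 weeks than at 1 week (-0.996 on the log2 scale) and than in males at 5 weeks (-1.20, edgeR adjusted p = 0.00654 and 0.00644). The side differences of Gfra1 and Gfra3 grew by 0.95 and 0.52 between 24 h and 1 week in males. The comparison between sexes and that between 24 h and 1 week also compare the 2 count tables, so these cannot be told apart.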

How the results depend on the processing

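Of 1999 values recomputed for the members over 79 results, 1918 kept direction and side of the threshold. With the replicate block, the calls that changed are those named with it in the report: Ret at 24 h and between 24 h and 1 week, and Gfra3 between weeks in males. It changed no other member's call. No block could be fitted to the contralateral comparisons, which hold no pairs of sides. The block raised counts of called genes for males between weeks (40 to 497) and between sexes (214 to 517 at 1 week, 405 to 697 at 5 weeks). Between weeks in males DESeq2 called 140, and leaving out a library gave 26 to 98. At 24 h fitting only the 2 groups called 1604 genes of 2560. Without libraries of numbers 5 and 6, an alternative added after seeing the data, 1457 were called. With the ribosomal RNA covariate 4060 genes were called in females at 1 week, 716 between weeks in females and 556 between contralateral weeks in males. In females at 1 week this share did not overlap between sides.

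Reversed values were all of uncalled differences. With contralateral libraries of the other week Nrtn in females at 1 week was -0.0146, Ret in females at 5 weeks 0.0546 and Artn in females at 5 weeks 0.155. With the ribosomal RNA covariate Ret and Nrtn between sexes at 1 week were 0.0066 and 0.177, and Gfra3, Gdnf, Artn and Nrtn between contralateral weeks in males 0.0252, 0.251, 0.299 and 0.0075. Leaving out a library gave, for side differences, Ret -0.0618 to 0.0081 (females 1 week) and -0.0579 to 0.0344 (5 weeks), and Nrtn -0.108 to 0.396 (females 5 weeks). Between weeks it gave Gfra2 -0.326 to 0.0102 and Gdnf -0.0227 to 1.14 in males, and Ret -0.0235 to 0.0687, Gfra2 -0.0477 to 0.193, Gfra3 -0.0059 to 0.0956 and Nrtn -0.281 to 0.223 in females. Between sexes it gave Ret -0.0348 to 0.0365 at 1 week, and Gfra1 -0.0446 to 0.0903 and Gfra2 -0.0983 to 0.275 at 5 weeks. Between contralateral weeks it gave Gfra3 -0.0514 to 0.0304 in males, and Gfra1 -0.0100 to 0.0252 and Nrtn -0.186 to 0.318 in females. The coreceptor sum over Ret at 24 h was 0.0565 higher ipsilaterally without length scaling and -0.0126 to 0.0111 without one library. With same-numbered sides as pairs, its differences at 5 weeks were the same (0.793 in males, 0.517 in females), and 5 and 6 pairs could not give an adjusted p under 0.05 there. Fewer samples or another baseline entered these fits, and the cause was not tested otherwise. Gdnf, Artn and Nrtn rest on few counts, and their side differences had the widest standard errors among the members.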
